A study of Mus musculus with 6 samples.

Results

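Deubiquitinating enzymes are proteases that take ubiquitin off other proteins. Their mRNAs were followed here in oocytes of aged mice, off and on polysomes. Members were all genes of the deposited table whose symbol starts with Usp and a digit, with Uchl and a digit, or with Otub or Otud. This gave 66 of 25899 genes, of which 52 are ubiquitin-specific proteases (Usp), 4 are ubiquitin C-terminal hydrolases (Uchl) and 10 are proteases of the ovarian tumour class (Otub and Otud). Membership went by symbol, and 1 member, *Usp6nl*, codes for a GTPase activator and not for a protease.

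The oocytes came from CD1 females aged 58 weeks, per the labels (the study's methods use another stock name and a different age), that had been primed with pregnant mare serum gonadotropin. Fully grown oocytes were freed of cumulus cells, left to resume meiosis for 180 min and held with the elongation inhibitor cycloheximide (0.1 mg/ml) for 10 min before lysis. Each sample held 200 oocytes that had passed nuclear envelope breakdown (NEBD). Its lysate was spread on a sucrose gradient, and the 10 fractions were joined into a non-polysomal pool (NP, free mRNA and mRNA with single ribosomes) and a polysomal pool (P, mRNA with several ribosomes). There were 3 NP and 3 P libraries, all from aged females (AF) with no genetic change. No source used here says whether the 3 samples of a pool came from separate sets of females, so p values refer to these samples only. Libraries of young females were not analysed here. RNA was depleted of ribosomal RNA and amplified as a whole transcriptome before sequencing, with a kit that does not mark the strand.

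Ubiquitin is attached to proteins by the E1, E2 and E3 enzymes in turn, as a single unit or as chains. Chains linked through one lysine send proteins to the proteasome, while other chains and single units change where a protein sits or what it binds. Deubiquitinating enzymes reverse this, trim chains, and free ubiquitin from its precursors. Meiotic divisions depend on timed ubiquitination by the anaphase promoting complex, and the growing oocyte stores both proteins and dormant mRNAs for use after meiosis resumes. The ovarian tumour class takes its name from a fly gene needed for egg formation.

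The symbol does not always stand for a separate set of reads. *Uchl3* and *Uchl4* are near copies, with coding sequences of 690 and 699 bases that are 96.1% identical in GENCODE M21 (18 mismatches and 9 gap columns), and the longest identical run holds 145 bases. A stretch of 60 coding bases is shown, positions 88 to 147 counted from the first base of the start codon. It was picked as a window without gaps that has the most differences, and the 5 differing bases are in capitals.
Uchl3: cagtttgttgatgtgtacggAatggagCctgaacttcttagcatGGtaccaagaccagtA
Uchl4: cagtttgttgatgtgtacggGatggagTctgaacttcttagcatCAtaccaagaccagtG
*Uchl1*, by contrast, is 58.2% identical to *Uchl3* over the same kind of alignment. *Uchl4* shares 26.2% of its 50-base words with *Uchl3*, so reads of *Uchl4* can belong to *Uchl3*. The same holds for *Usp49*, which shares 49.3% of its 50-base words with the overlapping model Gm20517, and for *Usp1*, which shares 21.4% with Gm5841. On the opposite strand, exons of *Thoc1* cover 26.0% of those of *Usp14*, and exons of the antisense gene Uchl1os cover 18.1% of those of *Uchl1*. With no strand mark, reads of such partners cannot be told apart.

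Depth differed between libraries and was lowest in P replicate 1, while P replicate 3 was deeper than NP replicate 1. Depths recovered from the steps in the FPKM values (fragments per exon length and mapped reads) were 1237799, 18096676 and 12131030 reads for NP replicates 1 to 3 and 163822, 1141531 and 1549317 for P replicates 1 to 3. A count of 3 reads on an mRNA of 2000 bases, the limit that a value of 0 allows, corresponds to 0.0829 to 1.21 FPKM in the NP libraries and to 0.968 to 9.16 in the P libraries, highest in P replicate 1. Summed FPKM over all genes were 597261 to 633110 in NP and 246182 to 393876 in P, so P values were lower on average. All 12 oocyte markers were above 0 in every library, with a summed level of 12157 to 15397 FPKM in NP, against 5430.1 to 15689 in P. Of 12 granulosa and cumulus cell markers 2 to 4 were above 0 in a library, with a summed level of 11.2 to 131 FPKM in NP against 2.28 to 16.5 in P, and 7 of them, *Foxl2*, *Amh* and *Fshr* included, were at 0 in all. The markers seen were mainly *Cyp19a1*, at 7.15, 22.5 and 104 FPKM in NP against 15.4, 0 and 0 in P, and *Nr5a2*, at 3.37, 6.32 and 26.9 in NP against 0, 5.71 and 1.18 in P. Their part in the results was not tested. Of 8 listed blood and immune markers none was above 0 in 5 libraries and 1 was in NP replicate 1, at 0.643 FPKM.

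Most of the family was detected. In the NP libraries 59, 60 and 55 members were listed above 0, and in the P libraries 43, 50 and 36 (replicates 1 to 3). These are 89.4%, 90.9% and 83.3% of the members in NP and 65.2%, 75.8% and 54.5% in P, beside 42.8%, 52.2% and 38.6% of all genes in NP and 24.1%, 36.9% and 26.7% in P. Above 1 FPKM there were 50, 49 and 34 members in NP and 42, 46 and 30 in P. A total of 33 members were above 0 in all 6 libraries, 11 were above 0 in some NP library and in no P library, and none was seen in P alone. *Usp18*, which removes the ubiquitin-like ISG15, the Y-linked *Usp9y*, *Usp25* and *Otud6a* were listed at 0 in all 6. The heat map of all members shows a small group with high levels in every library and a long tail with many zeros.

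**Figure D1:**
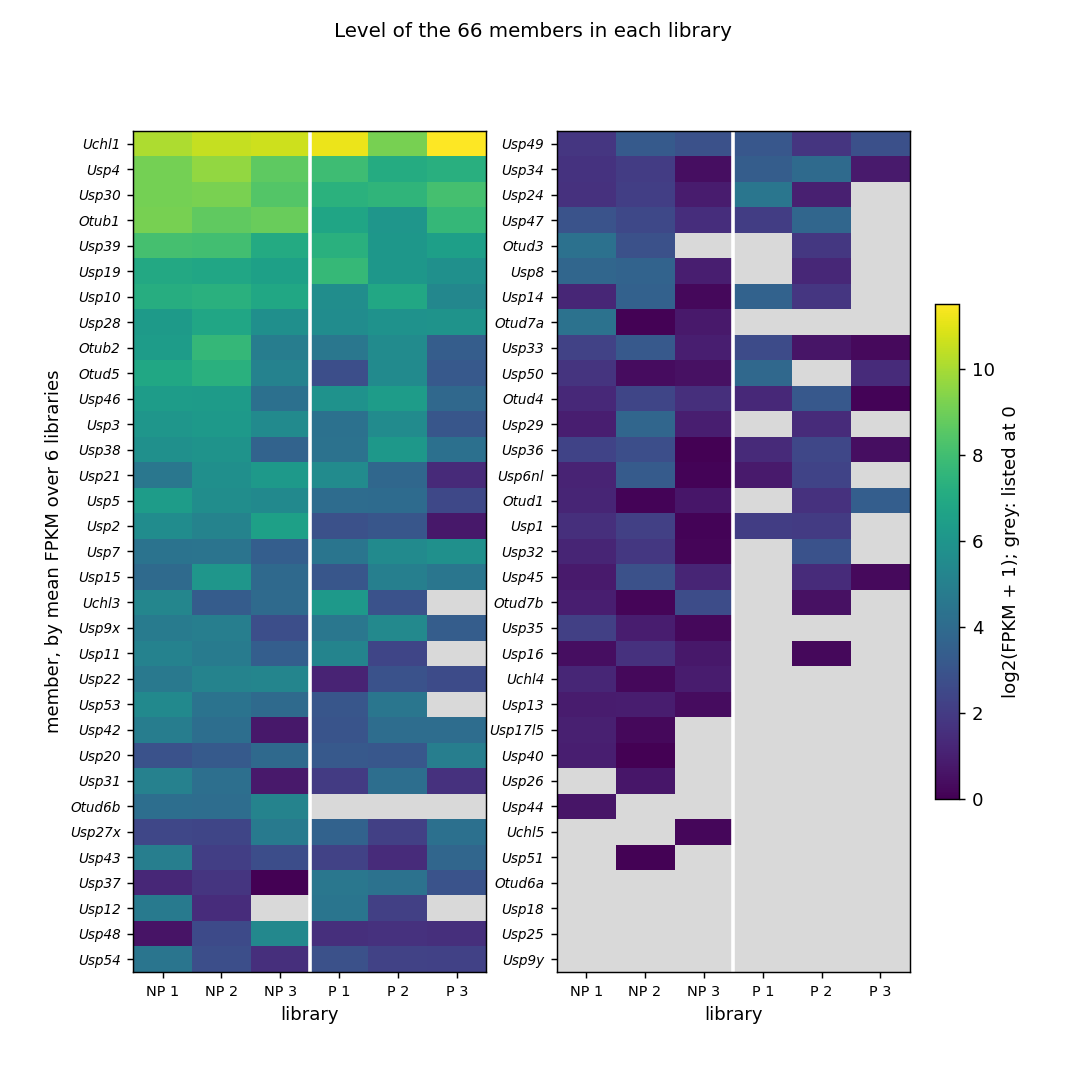
Level of the 66 members in the 3 NP and 3 P libraries, as colour on a log2(FPKM + 1) scale, with members ordered by their mean over the 6 libraries. Grey marks a member listed at 0. *Uchl1* leads with up to 2951 FPKM, and 15 members are grey in all 3 P libraries.

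The same few mRNAs led both pools. Of the 10 members with the highest mean in NP, 8 were also among the 10 highest in P, with *Uchl1*, *Usp4*, *Usp30* and *Otub1* in the first 4 places of each. *Otub2* and *Otud5* were in the NP list only, and *Usp46* and *Usp7* in the P list only. FPKM is a level per length, so these levels can be set beside each other. Members past the top were far lower: without *Uchl1* the median member was at 6.41, 6.35 and 1.31 FPKM in NP against at 5.13, 3.83 and 0.217 in P. The lowest of these, in NP replicate 3 and P replicate 3, carried the same number.

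P was then compared with NP to ask which of these mRNAs had a different level in the 2 pools. FPKM is relative to the mapped reads of each library, so a ratio does not give the share of an mRNA on polysomes. The test was limma on log2(FPKM + 1) over the 10578 genes with a mean above 1 FPKM in either pool, with Benjamini-Hochberg adjustment and a threshold of 0.1. Of the 66 members 54 passed that filter, and the other 12 reached no more than 1.39 FPKM in any library and were at 0 in every P library. In this fit, which has no block, only *Otud6b* passed the test, lower in P (1 of 54, 1.85%, beside 1.8% of all genes tested that were called lower and 0.0189% called higher). With a library left out, 0 members were called without NP replicate 1, 2 or 3, or without P replicate 1 or 2, and 2 of 54 (*Otub1* and *Otud6b*, 3.7%) were called without P replicate 3, beside 3.13% of all genes in that fit. Calls over all genes went from 192 to 4, 12 and 1 without NP replicates 1 to 3, and to 240, 156 and 331 without P replicates 1 to 3. Unadjusted p values under 0.05 were found for 7 members lower in P (13.0% of those tested, beside 15.5% of all genes) and for 1 higher (1.85%, beside 0.293%). The paper states that both pools were made from each sample, which these fits leave out. With the replicate number as a block, 668 genes and 2 members were called. The members were *Otud6b* (limma adjusted p = 0.0252) and *Usp2* (limma adjusted p = 0.0672). Whether libraries of equal number share a sample is not stated in the sources used here.

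On the log2 scale, the P over NP ratio had a median of -0.76 over the members and of -1.03 over all genes tested (quartiles -1.69 and 0.04, and -1.83 and -0.22). A change is therefore also given relative to -1.03. Relative to it, 30 members lay above and 24 below. Of the 54, 44 passed the filter in both pools, 9 through NP alone and 1 through P alone. On the deposited scale 40 members had a ratio below 0 and 14 above (25.9%, beside 19.9% of all genes), but the split became 26 below and 28 above under median-of-ratios rescaling, 24 and 30 under quantile normalization, and 27 and 27 when libraries were set to a common FPKM sum. Passing through 1 pool largely fixes the sign, and among the 44 that passed in both, 31 were below 0 and 13 above (29.5%, beside 20.8% of all genes that passed in both), with medians of -0.48 and -0.95, and 27, 28 and 26 were above 0 under the 3 rescalings. Every P library lay below every NP library for 10 members (18.5%, beside 23.2% of all genes), and above for 2 (3.70%, beside 0.633%). Here a value of 0 counts as lower. With zeros in P set to the 3-read limit, 7 of the 10 kept every P library below every NP library, and *Otud7a*, *Usp35* and *Usp16* did not. Each value is a mean over the 200 oocytes lysed together, so a lower level in P in some of them and in all of them cannot be told apart.

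**Figure D2:**
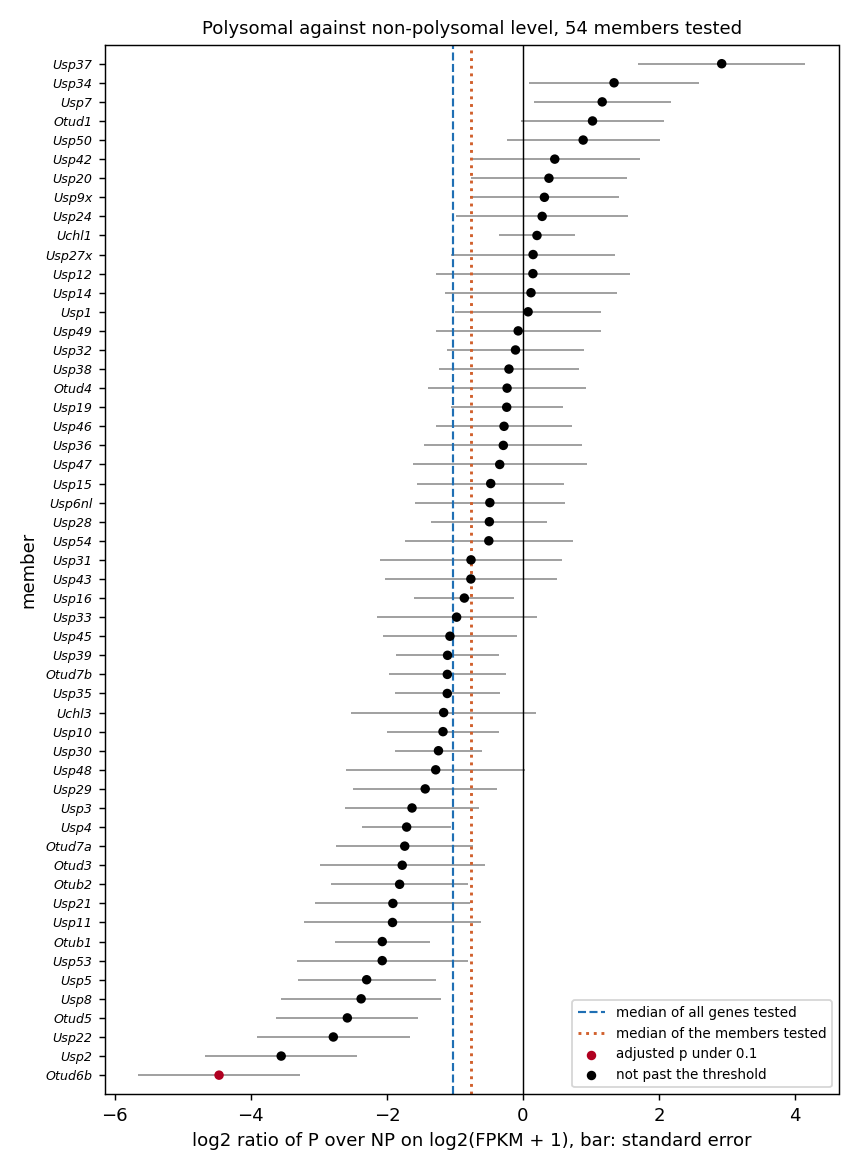
Log2 ratio of P over NP for the 54 members tested, on the log2(FPKM + 1) scale, with bars of 1 standard error and lines at 0, at the median of all genes tested (-1.03) and at that of the members (-0.76). Only *Otud6b* at -4.47 is past the adjusted threshold in the fit without a block, and *Usp37* at 2.92 has the highest ratio. Under the 3 rescalings 24 to 27 of the 54 lie below 0.

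Of the Uchl class, *Uchl1* was the member with by far the highest level. UCHL1 is a small hydrolase that holds monomeric ubiquitin and is abundant in neurons and oocytes. Its gene lies on chromosome 5, 66676098 to 66687231 (GRCm38, plus strand). NP replicates 1 to 3 had 1106, 1461 and 1619 FPKM, and P replicates 1 to 3 had 2349.5, 581 and 2951. Thus 2 P libraries were above all NP libraries and 1 was below them all. Recovered reads behind these values were 2234, 43155 and 32060 in NP and 628, 1082 and 7461 in P. Amplified reads are not independent molecules, so these counts do not give the sampling error. By mean level (1395 ± 263 in NP and 1960.3 ± 1232 in P, SD, n = 3) *Uchl1* ranked 40 among all genes in NP and 10 in P. It made up 25.1%, 29.1% and 42.2% of the summed FPKM of all members in NP, and 60.9%, 30.5% and 72.1% in P. The log2 ratio was 0.21 (SE 0.56, limma adjusted p = 0.861), 1.24 above the all-gene median, and it turned to -0.07 without P replicate 1 and to -0.24 without P replicate 3.

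The other Uchl members were far below *Uchl1*. *Uchl3*, which also acts on the ubiquitin-like NEDD8, had 38.3, 9.22 and 14.6 FPKM in NP against 72.3, 6.6 and 0 in P. The P libraries lay on both sides of NP, and 91.6% of the summed P level came from P replicate 1, the shallowest. Its log2 ratio was -1.16 (SE 1.36, limma adjusted p = 0.642), and 0.36 without P replicate 3. *Uchl4* had 1.39, 0.190 and 0.851 FPKM in NP, from 2, 4 and 12 reads, and 0 in each P library, where 3 reads would give 1.67 to 15.8 FPKM. *Uchl5*, a partner of the proteasome, had 0.134 FPKM in NP replicate 3 and 0 elsewhere.

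The Otub and Otud members are given next. Of the 10, 9 were tested, 1 (*Otud6b*) was called lower and none higher, beside 1.8% and 0.0189% of all genes tested. Their median ratio (log2) was -1.77 beside -1.03 for all genes. Of the 9, 4 passed the filter through NP alone and 1 through P alone, which largely fixes the sign of their ratios, so no class pattern is read from the 9. The other 4 (*Otub1*, *Otub2*, *Otud4* and *Otud5*) all had a ratio below 0 on the deposited scale, though *Otud4* turned positive under the rescalings, and 3 of the 4 lay below the all-gene median.

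*Otud6b*, an OTU protease, lies on chromosome 4, 14809498 to 14826587 (minus strand). It had 16.7, 16.2 and 34.6 FPKM in NP, from 70, 993 and 1420 reads, and 0 in all 3 P libraries. NP and P did not overlap. Its limit of 3 reads is 5.41, 0.776 and 0.572 FPKM in P replicates 1 to 3, all under the lowest NP value. Set against the mean of these limits, the mean NP level of 22.5 ± 10.5 FPKM (SD, n = 3) was 9.99-fold higher. It was 33.4-fold higher without P replicate 1, whose limit is the highest. These folds take reads as independent, which amplified reads are not, so they are no lower bound. The fitted log2 ratio was -4.47 (SE 1.19, limma adjusted p = 0.0746). With P at 0 its size is set by the pseudocount, and it was -7.73 with a pseudocount of 0.1, -2.40 with one of 5 and -3.31 under quantile normalization. The adjusted p ranged from 0.0252 to 0.605 over the alternatives. A total of 5.85% of its 50-base words also occur in Gm12444.

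*Otub1* is a protease for chains that lead to the proteasome, and it also blocks E2 enzymes without cutting. It had 567, 417 and 476 FPKM in NP against 110.3, 65.4 and 207 in P. Every P library was below every NP library, by 3.82-fold between the means of 487 ± 75.6 and 127 ± 72.2 (SD, n = 3). The log2 ratio of -2.07 (SE 0.70) lay 1.04 below the all-gene median and did not pass the test (limma adjusted p = 0.162), except without P replicate 3 (-2.49, adjusted p = 0.0635). *Otub2*, its closest relative, had 82.4, 206 and 28.6 FPKM in NP against 23.1, 45.8 and 9.43 in P, which overlap, with a log2 ratio of -1.81 (SE 1.005, limma adjusted p = 0.380).

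*Otud5*, an X-linked regulator of innate immune signalling, had 115 FPKM, 158 and 33.6 in NP and 5.87, 44.8 and 8.44 in P. P replicate 2 lay above NP replicate 3, so the pools overlapped. The log2 ratio was -2.58 (SE 1.04, limma adjusted p = 0.240), 1.55 below the all-gene median. *Otud7a* was above 0 in every NP library and in no P library, but the NP level rested on replicate 1, at 19.2 FPKM beside 0.0611 and 0.729 (log2 ratio -1.74, SE 1.01, limma adjusted p = 0.399). Its relative *Otud7b*, which cuts chains made by the anaphase promoting complex, had 0.951, 0.124 and 5.49 FPKM in NP against 0, 0.412 and 0 in P (-1.11, SE 0.86, limma adjusted p = 0.499).

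The remaining OTU members were low and uneven. *Otud3* had 18.9, 6.29 and 0 FPKM in NP against 0, 2.63 and 0 in P (log2 ratio -1.77, SE 1.21, limma adjusted p = 0.460). *Otud4* had 1.497, 4.26 and 1.98 FPKM in NP against 1.51, 7.90 and 0.0797 in P, a ratio of -0.23 (SE 1.16, limma adjusted p = 0.931) that was positive under all 3 rescalings. *Otud1*, which passed the filter through P alone, had a ratio of 1.02 (SE 1.05, limma adjusted p = 0.596), and of 0.14 without P replicate 3, from 1.28, 0.0874 and 0.619 FPKM in NP against 0, 2.08 and 9.95 in P. In each of these the pools overlapped.

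Among the Usp members 43 of 52 were tested and none was called without a block, beside 1.82% of all genes called in either direction. Their median log2 ratio was -0.49, beside -1.03 for all genes. A ratio below 0 was found for 31 and above 0 for 12, but under the rescalings 18, 16 and 19 were below 0 and 25, 27 and 24 above (in the same order as above). Relative to the all-gene median, 27 of 43 lay above. In 28 of the 52 all 3 P libraries were above 0, and in 43 all 3 NP libraries were.

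*Usp4*, *Usp11* and *Usp15* form a group of related enzymes. *Usp4*, known for work on splicing factors and signalling receptors, had 551, 800.2 and 399.8 FPKM in NP against 243, 134 and 153 in P. The pools did not overlap, and the means of 584 ± 202 and 177 ± 58.3 (SD, n = 3) differed 3.30-fold. The log2 ratio of -1.71 (SE 0.65) lay 0.68 below the all-gene median and did not pass (limma adjusted p = 0.207). *Usp15* was at a lower level, with 15.0, 66.1 and 14.5 FPKM in NP against 7.57, 30.7 and 22.0 in P. *Usp11*, X-linked, had 33.6, 26.8 and 9.93 FPKM in NP against 36.1, 4.26 and 0 in P, and both relatives overlapped between the pools.

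Enzymes anchored in organelle membranes were among the highest. *Usp30* sits in the outer mitochondrial membrane, where it opposes the marking of mitochondria for removal. It had 551, 582 and 346 FPKM in NP against 163, 186 and 274 in P, with no overlap. Its log2 ratio of -1.24 (SE 0.64, limma adjusted p = 0.347) lay only 0.21 below the all-gene median. *Usp19*, which has a form anchored in the endoplasmic reticulum, had 122, 112 and 91.8 FPKM in NP against 207, 68.1 and 53.7 in P, so the P libraries fell on both sides of NP. Its ratio of -0.24 (SE 0.82, limma adjusted p = 0.896) turned positive under all 3 rescalings.

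*Usp39* has lost its catalytic residues and serves in the spliceosome. It had 282, 263 and 132 FPKM in NP against 159, 67.2 and 90.2 in P, with P replicate 1 above NP replicate 3 (log2 ratio -1.11, SE 0.76, limma adjusted p = 0.459). *Usp10*, a partner of the stress granule proteins G3BP1 and G3BP2, had 142, 161 and 117 FPKM in NP against 49.2, 118 and 39.0 in P. P replicate 2 lay just above NP replicate 3, and the ratio was -1.17 (SE 0.82, limma adjusted p = 0.462). These ratios lay 0.08 and 0.14 below the all-gene median.

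Of 7 members tied to the cell cycle 6 were tested and none was called, beside 1.82% of all genes called in either direction. Of the 6 ratios 3 were above 0 and 3 below (median -0.21), but 4, 5 and 4 were above 0 under the 3 rescalings. *Usp37*, which stabilizes cyclin A and is itself a target of the anaphase promoting complex, lies on chromosome 1, 74435510 to 74544286 (minus strand). It had 1.46, 2.38 and 0.0115 FPKM in NP against 22.9, 19.1 and 6.64 in P. All 3 P libraries were above all 3 NP libraries, and the means were 1.28 ± 1.19 and 16.2 ± 8.51 (SD, n = 3), with an NP mean of 0.735 without NP replicate 2. The log2 ratio was 2.92 (SE 1.23), 3.95 above the all-gene median, but it did not pass the test (limma adjusted p = 0.260, unadjusted p = 0.0261). It was positive under every alternative, between 1.68 and 4.25, and passed under none (adjusted p 0.132 to 0.626). *Usp28*, a checkpoint enzyme, had 76.0, 114 and 52.1 FPKM in NP against 47.7, 56.9 and 58.7 in P, with little spread in P (54.4 ± 5.89, SD, n = 3) and overlap between pools. Its ratio of -0.49 (SE 0.85, limma adjusted p = 0.773) was positive under the 3 rescalings. *Usp44*, a regulator of the spindle checkpoint, was seen in NP replicate 1 alone, at 0.551 FPKM, and *Usp16*, which acts on histone H2A, had 0.342, 2.13 and 0.689 FPKM in NP against 0, 0.185 and 0 in P, where 3 reads in P replicate 1 would give 1.94 FPKM.

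**Figure D3:**
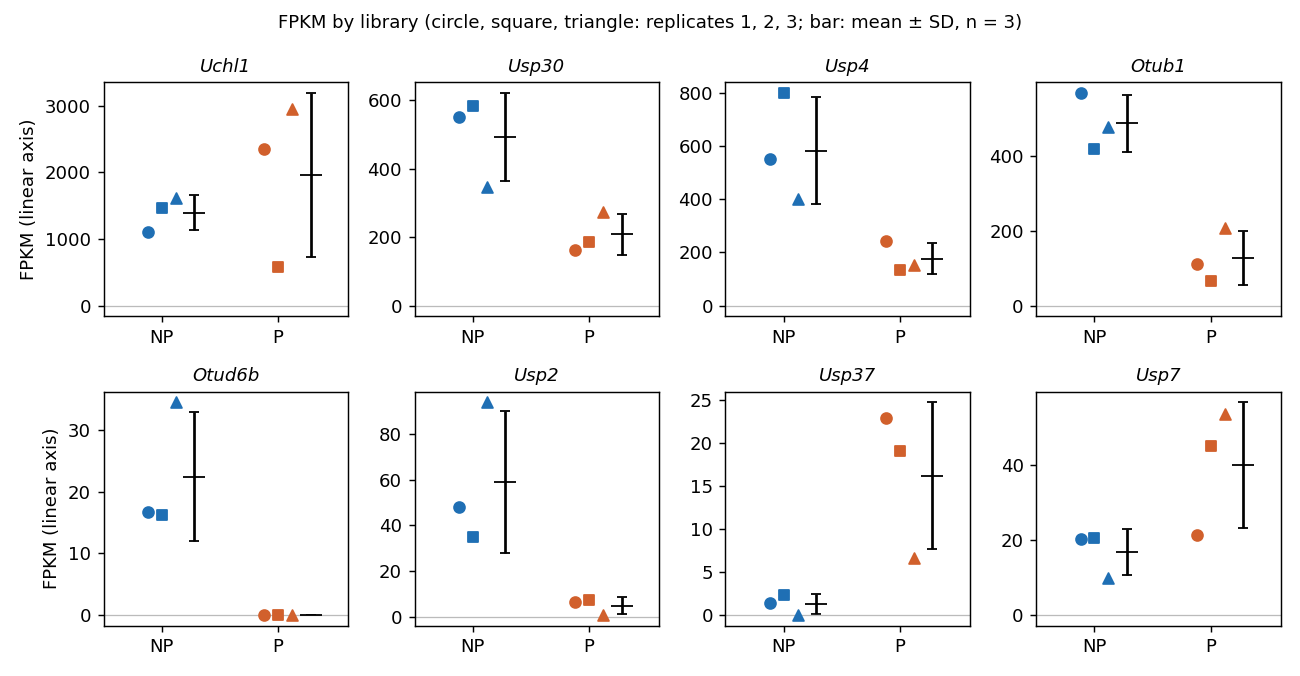
FPKM of 8 members in each library on linear axes that differ between panels, with replicates 1 to 3 as circle, square and triangle and a bar for the mean ± SD (n = 3). *Usp30*, *Usp4*, *Otub1*, *Otud6b* and *Usp2* have every P library below every NP library, *Usp37* and *Usp7* have every P library above, and *Uchl1* has P libraries on both sides.

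Ratios of chromatin enzymes lay on both sides of 0 on the deposited scale, and differences between members were not tested. *Usp7*, which acts on MDM2, p53 and histone modifiers, had 20.3, 20.4 and 9.83 FPKM in NP against 21.2, 45.1 and 53.5 in P. The lowest P value lay just above the highest NP value, and the ratio of 1.17 (SE 1.01, limma adjusted p = 0.533) was positive under every alternative (0.84 to 2.22). *Usp22*, the H2B protease of the SAGA complex, had 24.0, 34.3 and 37.5 FPKM in NP against 1.25, 6.45 and 5.15 in P. Its pools did not overlap, its means were 7.45-fold apart, and its ratio of -2.79 (SE 1.13, limma adjusted p = 0.240) lay 1.76 below the all-gene median. *Usp27x*, a near relative of *Usp22*, had 4.53, 4.34 and 24.9 FPKM in NP against 11.4, 3.48 and 17.8 in P, which overlap. *Usp3* (65.6, 72.7 and 45.5 FPKM in NP, while P had 18.7, 45.7 and 7.35) and *Usp21* (22.9, 52.8 and 73.1, while P had 46.2, 13.4 and 1.63), both H2A enzymes, also overlapped. Of the 10 members of this group 8 were tested and none was called, beside 1.82% of all genes tested. Their median ratio was -0.57, beside -1.03 for all genes.

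Enzymes of endosomes and receptor turnover held the second lowest ratio. *Usp2*, linked to cyclin D1 and the circadian clock, lies on chromosome 9, 44067021 to 44095627 (plus strand). It had 48.1, 35.1 and 94.1 FPKM in NP against 6.35, 7.47 and 0.671 in P. Every P library was below every NP library, and the means of 59.1 ± 31.0 and 4.83 ± 3.65 (SD, n = 3) were 12.2-fold apart, although only 5, 41 and 5 reads stand behind the P values. The log2 ratio of -3.55 (SE 1.12) lay 2.52 below the all-gene median and did not pass (limma adjusted p = 0.137, and 0.0672 with the replicate number as a block). *Usp8*, which frees receptors from the sorting machinery of endosomes, had 13.1, 11.6 and 0.944 FPKM in NP against 0, 1.46 and 0 in P (-2.38, SE 1.17, limma adjusted p = 0.328), with NP replicate 3 below P replicate 2. *Usp9x* had 26.4, 29.3 and 5.81 FPKM in NP against 22.7, 42.6 and 9.56 in P, and *Usp20* had 6.41, 8.67 and 14.4 in NP and 8.21, 7.78 and 29.2 in P, so these overlapped.

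*Usp5* takes apart free ubiquitin chains. It had 81.1, 49.2 and 43.5 FPKM in NP against 15.9, 15.4 and 4.61 in P, without overlap (log2 ratio -2.30, SE 1.02, limma adjusted p = 0.282). Its relative *Usp13* had 0.851, 0.916 and 0.293 FPKM in NP against 0 in every P library, where 3 reads would give 0.255 to 2.41 FPKM. *Usp35*, with 3.6, 0.869 and 0.174 FPKM in NP, was also at 0 in every P library. *Usp13*, *Otud6b*, *Otud7a*, *Usp35* and *Uchl4* were the 5 members above 0 in all 3 NP libraries and in no P library, of 54 above 0 in all 3 NP libraries. The share among all genes of that kind was 6.94%, and only for *Otud6b* did all 3 NP values exceed the 3-read limit of every P library.

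*Usp46*, *Usp12* and *Usp1* are activated by the same partner, WDR48. *Usp46* had 81.9, 80.4 and 18.2 FPKM in NP against 58.5, 81.9 and 13.8 in P, nearly the same range in both pools. Its ratio was -0.28 (SE 0.997, limma adjusted p = 0.901) and was positive under the 3 rescalings and without NP replicate 1, NP replicate 2 or P replicate 3. *Usp12* had 25.6, 1.80 and 0 FPKM in NP against 21.1, 3.59 and 0 in P, and *Usp1* had 1.95, 3.60 and 0.0883 in NP and 3.27, 3.05 and 0 in P. In each of the 3, replicate 3 was lowest in both pools.

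Several other members had ratios above 0 or near it, of which 4 are given. *Usp34*, a very large enzyme of Wnt signalling, had 2.27, 3.19 and 0.330 FPKM in NP against 9.58, 14.8 and 0.769 in P (log2 ratio 1.34, SE 1.25, limma adjusted p = 0.563), and exons of *Ahsa2* on the opposite strand cover 11.6% of its exons, with *Ahsa2* itself at 0.357, 1.41 and 0.109 FPKM in NP against 16.2, 39.2 and 2.14 in P. *Usp50* had 2.35, 0.286 and 0.453 FPKM in NP against 13.8, 0 and 1.67 in P (0.89, SE 1.13, limma adjusted p = 0.675), and -0.17 without P replicate 1. *Usp42* had 28.5, 17.1 and 0.674 FPKM in NP against 6.85, 16.3 and 16.5 in P (0.47, SE 1.25, limma adjusted p = 0.860), and -0.79 without NP replicate 3. *Usp14*, the main ubiquitin protease bound to the proteasome, had 1.35, 10.9 and 0.193 FPKM in NP against 11.2, 2.49 and 0 in P. All 4 overlapped between the pools.

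None of the other genes of the pathway that were looked at was called, beside 1.82% of all genes tested. Of 31 genes of other deubiquitinating classes 25 were in the table and 19 were tested, with 17 ratios below 0 and a median of -0.42, but 8, 5 and 8 below 0 after rescaling by median of ratios, by quantiles and to a common sum. Among them *Bap1*, which acts on H2A, had 194, 229 and 107 FPKM in NP against 21.5, 41.7 and 160.3 in P, and *Fam63a*, of the MINDY class, had 159, 556 and 219 in NP and 130.4, 186 and 739 in P. *Uba1*, the main E1 enzyme, had 256, 289 and 227 FPKM in NP against 104, 94.0 and 51.6 in P, without overlap (log2 ratio -1.67, SE 0.74, limma adjusted p = 0.284). Of 14 partner proteins 11 were tested and none was called, with 1 ratio above 0 (median -1.18), but 3, 5 and 3 above 0 under the 3 rescalings (medians -0.45, -0.05 and -0.52); *Wdr48*, the activator named above, had 57.5, 43.6 and 7.34 FPKM in NP against 30.4, 9.40 and 4.73 in P.

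The distance of the members' median from the all-gene median also moved. The members' median was higher by 0.27 as reported, 0.49 after rescaling by median of ratios, 0.39 after quantile normalization, 0.50 with a common FPKM sum, and by between 0.09 (no filter) and 0.58 (pseudocount 0.1) over the settings tried. The fits without the trend and with the block have the reported ratios by construction.

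**Figure D4:**
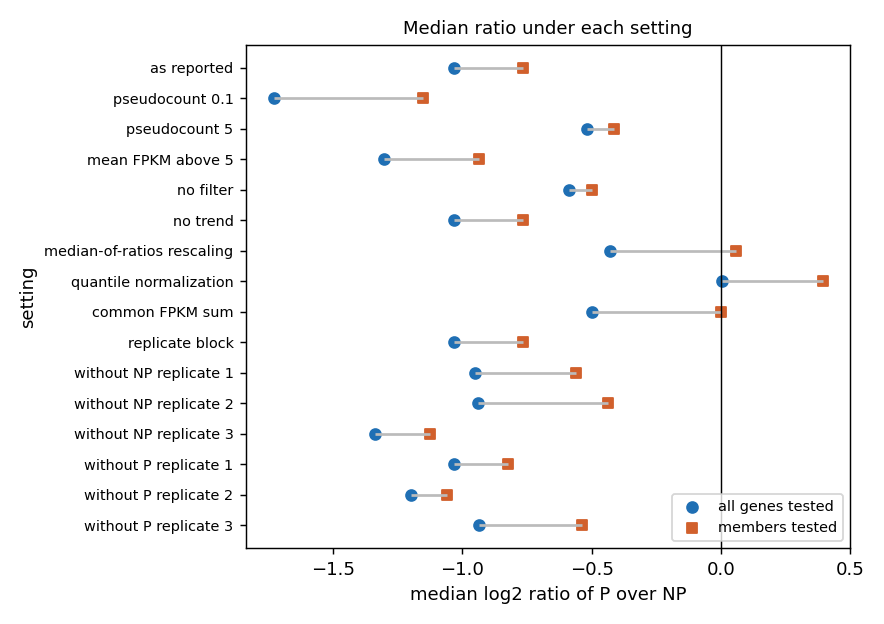
Median of the P over NP ratios (log2) for all genes tested (circles) and for the members tested (squares) under each setting, with a line at 0. As reported the medians are -1.03 and -0.76, and the members' median is 0.06 under median-of-ratios rescaling, 0.39 under quantile normalization and -0.00057 with a common FPKM sum.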

How the data were processed

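Ribodepleted RNA of NP and P pools of AF oocytes was sequenced, 3 libraries each. Per the submitters' processing notes and methods, the authors trimmed reads (Trim Galore 0.4.1), aligned them (HISAT2 2.0.5, GRCm38) and deposited FPKM per gene (Seqmonk). For the annotation release and strand setting, nothing is given in the sources used here. FPKM scale with mapped reads, so reads outside listed genes lower all values of a library.

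Of 25965 rows, 66 duplicated symbols were collapsed to the row with the highest mean. Depth was recovered from whole-read steps using exon lengths of GENCODE M21 (found for 87.5%). Of low values 57.9 to 65.2% were whole within 0.02 reads. Summed reads were 1.10 to 2.25 times the depth, and whether 1 step is a read or a fragment could not be settled. Limits cover counting error only, and amplified reads are not independent molecules.

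The pools were compared in limma 3.58.1 (R 4.3.3) with a trend and two-sided tests, without a block. Standard errors and p values are moderated, with the variance of a gene drawn towards that of genes of like level. The prior had 18.4 degrees of freedom beside 4 residual ones. A run of the fit on simulated data had a smaller spread than these libraries and no difference in depth, so it does not show how the fit performs here. An exact permutation test of 3 against 3 cannot go below 0.1. The members and lists were chosen with earlier results of these data known. Values are given for all Uchl, Otub and Otud members, the 10 highest in each pool, called members, the 6 largest and 6 smallest ratios and up to 2 others a role list. Other members were named after their values were seen where groups did not overlap. Alternatives were other pseudocounts, filters, scalings and thresholds, no trend, the replicate block and leaving out each library.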

Additional observations from a re-analysis of the deposited data

How the results depend on the processing

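Genes called over all genes (192) were 69 with a pseudocount of 0.1, 0 without the filter (1759 at an unadjusted p under 0.05 by limma), 15 without the trend, 3 after rescaling by median of ratios, 4 after quantile normalization, 6 with a common FPKM sum, 65 at a threshold of 0.05, and 1 to 331 with a library left out (4, 12 and 1 without NP replicates 1 to 3, 331 without P replicate 3). Members called (1) were 0 in each of these and with a pseudocount of 5, and 0 to 2 with a library left out. The all-gene median became 0.0027 under quantile normalization. Members above 5 FPKM in P replicate 2 were 30, beside 46 above 1. Under these 3 rescalings, in the same order, the log2 ratio was 0.70, 0.85 and 0.64 for *Usp46*, 0.31, 1.17 and 0.41 for *Otud4*, 0.49, 0.50 and 0.43 for *Usp28*, and 0.75, 0.79 and 0.69 for *Usp19*; with a pseudocount of 5 that of *Otud4* was 0.0078. With a library left out the ratio ranged from -1.04 to 0.48 for *Otud4*, -0.24 to 0.93 for *Uchl1*, -2.74 to 0.36 for *Uchl3*, -0.82 to 0.14 for *Usp19*, -0.79 to 1.28 for *Usp42*, -0.98 to 0.47 for *Usp46* and -0.17 to 1.77 for *Usp50*. The cause of these changes was not tested. Of 400 recomputed ratios of 27 members, 362 kept direction and side of the threshold, 12 lost the call (all *Otud6b*), 2 gained one and 24 changed sign.

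The replicate number as a block gave 668 called genes and 2 called members (*Otud6b*, adjusted p = 0.0252, and *Usp2*, adjusted p = 0.0672). Deviations of same-numbered NP and P libraries correlated at 0.063, 0.099 and 0.116 across genes and those of the others at -0.089 to 0.021, so each library correlated best with its own number, a hint from the data. By the paper each sample gave both pools, but no source used here states that equal numbers mark the same sample.

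The 3-read limit leaves zeros of low members open, above all in P replicate 1, where 3 reads on 2000 bases already give 9.16 FPKM. In P replicates 2 and 3 it is 1.31 and 0.968 FPKM, beside 1.21 in NP replicate 1. How far depth set the detection in P was not tested.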

Other observations

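Several P levels of low members came from 1 library. For 8 tested members over 90% of the summed P level lay in a single P library: *Usp24* (22.2 FPKM) and *Uchl3* in replicate 1, the shallowest, and *Usp8*, *Otud3*, *Otud7b*, *Usp16*, *Usp29* and *Usp32* (6.39 FPKM) in replicate 2.

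With the pool means removed, the members whose log2(FPKM + 1) was most like that of *Uchl1* over the 6 libraries were *Otub1* (r = 0.81), *Usp49* (0.76) and *Usp27x* (0.73), and the least like was *Usp10* (-0.96). All share libraries and depth, so this is a description. *Otub1* and *Uchl1* thus had their highest P level in the same library, P replicate 3, while their ratios of P over NP were -2.07 and 0.21. The difference between these ratios was not tested.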
